A study of Mus musculus with 4 samples.

Results

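The effector chemokine genes *Ccl3*, *Ccl4*, *Ccl5*, *Xcl1* and *Cxcl10* were followed through single-cell RNA-seq of T cells with an *Il17a* history, as 5 of 13265 genes in the deposited table. They were picked by symbol after their levels in these conditions and clusters were known, so those levels are given as a description, with no test. The small intestine of C57BL/6 mice aged 7 to 8 months was the source, and YFP+CD4+ T cells were sorted from mice carrying *Il17a-cre* and *Rosa26-stop fl/fl-yfp*, a reporter that marks every cell that has expressed *Il17a*, including cells that no longer do. TGFβR-KO mice also carried *Tgfbr2 fl/fl*, which removes the ligand-binding receptor of TGFβ from the marked cells. TGFβR-CA mice carried a constitutively active *Tgfbr1* behind a floxed stop cassette, and TGFβR-WT mice were littermates with neither change.

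The samples were 1 TGFβR-KO (2975 cells), 1 TGFβR-CA (1098 cells) and 2 TGFβR-WT (1007 cells). By the study's methods TGFβR-KO and TGFβR-CA were each run in a separate batch beside TGFβR-WT cells. By the suffix of their names, the TGFβR-WT cells fall into 2 sets, of 709 cells (the larger set) and 298 cells (the smaller set), which could not be tied to a sample. They were therefore pooled, and values of the sets are given where they bear on a result. With 1 sample of TGFβR-KO and of TGFβR-CA there is no replicate check on any difference below, genotype and library cannot be told apart, and only sizes are given. A level is the gene's corrected UMIs (captured RNA molecules after the authors' depth correction) per 10000 corrected UMIs of the same cells. Intervals are exact 95% binomial intervals over cells and cover counting error only.

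The 8 clusters are the authors' own, and 23 of 24 marker genes checked were highest in the cluster they mark. The exception was *Klf2* of Migratory cells, which was highest in Tumorigenic cells. Most of these markers are genes the authors named for the same clusters of the same cells, so the count describes the labels and does not test them. *Cd8a* was at 0 in TGFβR-CA and in both TGFβR-WT sets, and the summed level of the 2 CD8 genes was between 0.020 and 0.045 in all 4 sets of cells. Of the 4 γδ T cell genes *Tcrg-C1*, *Tcrg-C2* and *Tcrg-C4* were at 0 everywhere, and *Trdc* was at 0.181 in the smaller TGFβR-WT set (5 cells) and between 0.0157 and 0.0319 in the other sets. The summed level of the B cell genes was 0.658 in TGFβR-KO, where 327 of 2975 cells held one, and between 1.08 and 2.35 in the other sets, where between 22.5% and 33.2% of cells did, with *Cd79a* and *Ms4a1* at 0 in TGFβR-CA and the smaller set. That of the NK cell genes was between 0.193 and 0.323, with *Tyrobp* at 0 outside TGFβR-KO, and that of the myeloid genes between 1.89 and 2.21. Epithelial genes were at or below 0.0723. The part of such cells or RNA in the results was not tested. The summed level of the 5 CD4 T cell markers was 68.7 in TGFβR-KO and between 80.3 and 82.5 in the other sets. *Tgfbr2* was at 1.48 in TGFβR-KO and 1.73 in TGFβR-WT. Whether the reads cover the deleted part is not known, so this does not check the deletion. Of the barcodes, 14 of the larger TGFβR-WT set recurred in TGFβR-KO, 1 occurred in both TGFβR-KO and TGFβR-CA, and 1 in both TGFβR-WT sets.

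Chemokines are small secreted proteins that guide leukocytes along gradients through G-protein-coupled receptors. Ccl3, Ccl4 and Ccl5 (MIP-1α, MIP-1β and RANTES) attract monocytes, T cells and NK cells, and Ccl3 and Ccl5 act through Ccr1 among other receptors. Xcl1 (lymphotactin) attracts cross-presenting dendritic cells through Xcr1. These 4 are classically made by activated cytotoxic and type 1 T cells and NK cells, whereas Cxcl10 (IP-10) is best known as an interferon-induced chemokine that draws Cxcr3-bearing T cells to inflamed tissue.

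On GRCm38 (mm10), by GENCODE M21, *Ccl5* lies on the minus strand at chr11:83525778-83530518. *Ccl3* lies at chr11:83647844-83649355 on the same strand, and *Ccl4* at chr11:83662584-83664683 on the plus strand, 13228 bases from *Ccl3*. *Xcl1* lies at chr1:164931644-164935527 and *Cxcl10* at chr5:92346638-92348889, both on the minus strand. The coding stretch that sets the chemokine families apart is given for codons 26 to 45 of each transcript in GENCODE M21, from 5′ to 3′, with cysteine codons in capitals.
Ccl3: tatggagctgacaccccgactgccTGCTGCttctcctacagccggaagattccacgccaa
Ccl4: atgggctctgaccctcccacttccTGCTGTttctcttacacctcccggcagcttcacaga
Ccl5: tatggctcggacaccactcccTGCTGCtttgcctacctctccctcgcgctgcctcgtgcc
Xcl1: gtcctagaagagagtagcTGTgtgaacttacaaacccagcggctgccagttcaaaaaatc
Cxcl10: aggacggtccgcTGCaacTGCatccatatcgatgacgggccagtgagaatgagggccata

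*Ccl3*, *Ccl4* and *Ccl5* hold an adjacent pair of cysteines (the CC family), *Cxcl10* holds a pair parted by 1 residue (the CXC family), and *Xcl1* holds a single one here. *Ccl3* and *Ccl4*, the nearest pair, were identical at 68.4% of the 285 aligned coding positions, yet the longest run of bases that their transcripts share was 9. Reads of the 2 genes can thus be told apart by sequence.

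The upstream window of *Cxcl10* is printed because this gene parted from the other 4 in the data. RefSeq gives such a window for *Ccl3*, *Xcl1* and *Cxcl10*. *Ccl4* and *Ccl5* were not matched. The 250 bases before the *Cxcl10* start site (GRCm38.p6, chr5:92348890-92349139, minus strand) are shown 5′ to 3′, with every match to 4 searched motifs in capitals.
Cxcl10: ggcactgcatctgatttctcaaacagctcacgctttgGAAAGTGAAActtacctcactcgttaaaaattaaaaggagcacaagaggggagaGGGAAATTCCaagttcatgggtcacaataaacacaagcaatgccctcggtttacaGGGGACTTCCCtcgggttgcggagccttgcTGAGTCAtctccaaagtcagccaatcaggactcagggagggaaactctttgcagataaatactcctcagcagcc

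In that window, 1 interferon response element (GAAA and GAAA parted by 2 bases), 2 stretches that match the NF-κB consensus and 1 AP-1 element (TGANTCA) were found on searching both strands. The second NF-κB stretch is a pair of overlapping matches. Of 32851 mouse windows of this length, 2.98% held the interferon element, 7.25% the NF-κB consensus and 6.75% the AP-1 element. The T-box motif (TCACACCT, in 1.12% of windows) was not found in it, and none of the 4 motifs occurs in the windows of *Ccl3* and *Xcl1*. A match is a description of letters only.

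In TGFβR-KO a single cell held much of the signal of 3 of the 5 genes. *Ccl3* had 335 corrected UMIs in TGFβR-KO, of which 1 cell held 271 (80.9%). The same cell held 183 of 224 *Xcl1* UMIs (81.7%) and 617 of 1262 *Ccl4* UMIs (48.9%). It also held 60 *Ccl5* UMIs and no *Cxcl10*. *Ccl4*, *Ccl3*, *Xcl1* and *Ccl5* together made up 25.5% of its 4429 corrected UMIs, and *Ccl4* and *Ccl3* were its most abundant genes. The annotation places this cell in GC-TFH, the germinal center follicular helper cluster, but it held no *Cxcr5* or *Bcl6* and 1 UMI of *Pdcd1*. It held *Cd4* (2), *Cd3e* (4) and *Trac* (6), and no *Cd8a*, *Cd8b1*, *Trdc*, *Klrb1c* or *Tyrobp*. Its barcode occurred in no other set. Whether it was 1 cell or a doublet was not tested. The main values that it changes are given below with and without it, but ratios against a single TGFβR-WT set only with it.

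**Figure D1:**
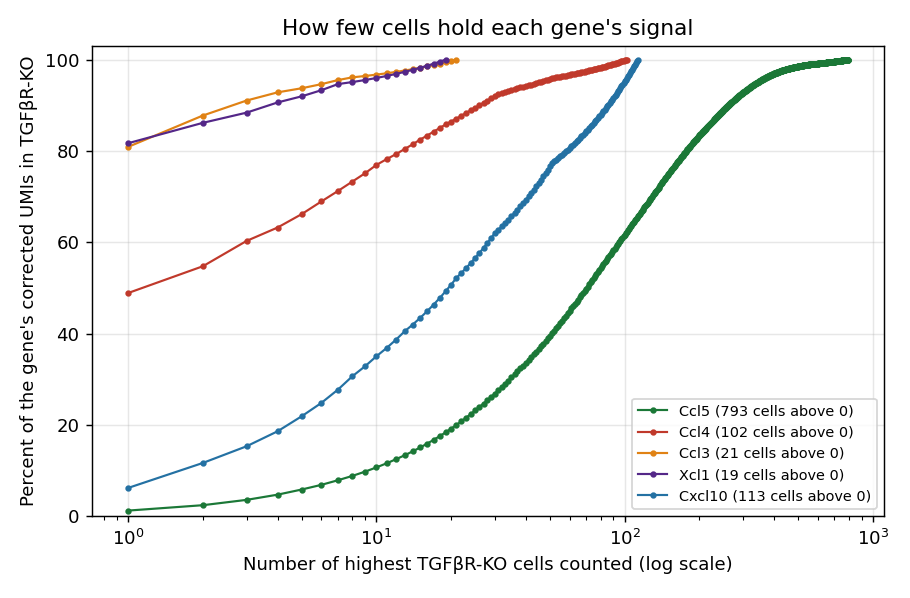
Percent of each gene's corrected UMIs in TGFβR-KO (vertical axis) held by the highest cells, counted one by one from the highest (horizontal axis, log scale). The curves of *Xcl1* and *Ccl3* begin at 81.7% and 80.9% with 1 cell and that of *Ccl4* at 48.9%, whereas *Cxcl10* took 20 cells and *Ccl5* 71 cells to reach 50%.

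*Ccl5* was the gene seen in most cells. In TGFβR-KO it was above 0 in 793 cells, 26.7% (25.1 to 28.3), at a level of 19.6. In TGFβR-WT it was above 0 in 49 cells, 4.87% (3.62 to 6.38), at a level of 1.05. The larger set stood at 1.01 and the smaller at 1.13, but *Ccl5* was above 0 in 6.21% (4.55 to 8.24) of the larger and 1.68% (0.547 to 3.87) of the smaller set, where 3 CTL cells held 135 of the 137 UMIs. In TGFβR-CA it was above 0 in 5 cells, 0.455% (0.148 to 1.06), at a level of 0.0913. The TGFβR-KO level was 18.7 times the pooled TGFβR-WT level. The TGFβR-WT level was 11.5 times that of TGFβR-CA. By level the 3 conditions therefore ordered as TGFβR-KO, TGFβR-WT and TGFβR-CA, with gaps above the difference between the TGFβR-WT sets, the only spread available. By share, TGFβR-KO lay above both sets, while the interval of the smaller set overlapped that of TGFβR-CA.

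Within TGFβR-KO, *Ccl5* was carried by the cytotoxic cluster CTL and by the cluster the authors call Tumorigenic. In CTL cells 310 of 321 held it, 96.6% (94.0 to 98.3), at a level of 123.6, and the median positive cell had 25 UMIs. In Tumorigenic cells 135 of 361 held it, 37.4% (32.4 to 42.6), at a level of 44.4. These 2 clusters held 14949 and 6264 of the 22451 *Ccl5* UMIs. The Tumorigenic cluster was split rather than uniformly lower. Of its cells 226 (62.6%) had none, while 82 (22.7%) had 10 or more and 28 (7.76%) had 100 or more. Near that mark of 10, 19 cells had 5 to 9 and 14 had 10 to 19. In CTL, 231 cells (72.0%) had 10 or more and 49 (15.3%) had 100 or more.

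**Figure D2:**
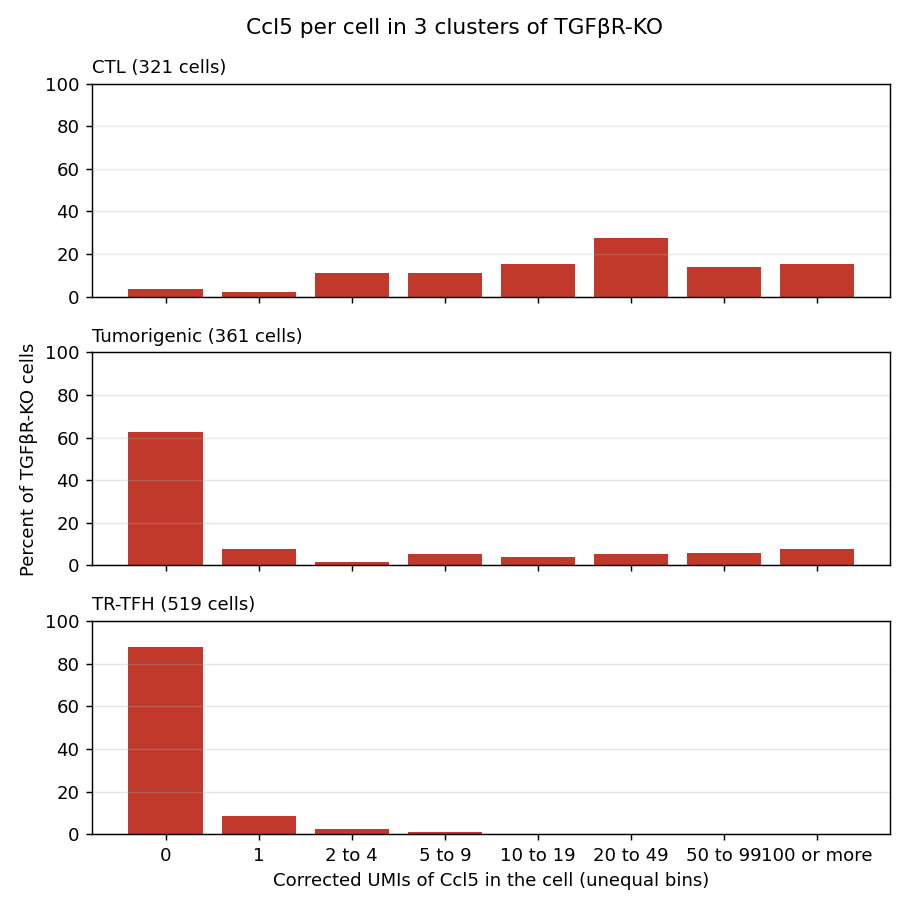
Percent of TGFβR-KO cells (vertical axis, from 0 to 100) by corrected UMIs of *Ccl5* in the cell (horizontal axis, unequal bins) in CTL, Tumorigenic and TR-TFH cells. Most CTL cells lie at 10 UMIs or more, TR-TFH cells lie at 0 or 1 but for 13 cells at 2 to 4, 5 at 5 to 9 and 1 above, and Tumorigenic cells lie at both ends.

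In 5 of the other 6 clusters the median cell with *Ccl5* held 1 UMI, which free RNA in the droplets can give. The exception was Cycling, with a median of 3 and 12 of 17 such cells at 2 UMIs or more. TR-TFH, the tissue-resident follicular helper cluster, served as the reference for this, with *Ccl5* in 63 of 519 cells, 12.1% (9.46 to 15.3), at a level of 0.617 and a highest cell of 13. The shares in GC-TFH (10.7%) and Migratory cells (14.3%) overlapped that interval, so no *Ccl5* above the reference was read from them, though 5 Migratory cells held 10 UMIs or more. Activated cells, at 22.0% (17.6 to 27.0), lay above it, and Pre-tumorigenic cells, at 19.6% (14.6 to 25.3), and Cycling cells, at 22.1% (13.4 to 33.0), reached into it. The median corrected depth of these clusters was between 3575 and 4271 UMIs per cell. In Pre-tumorigenic cells 1 cell held 128 of the 343 *Ccl5* UMIs.

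The ratio of *Ccl5* to *Nkg7*, a granule membrane gene of cytotoxic cells, was 8.12 in CTL, 7.0 in TR-TFH and 5.15 in Tumorigenic cells. It was between 0.909 and 1.88 in the other 5 clusters. The ratio to *Gzma*, a granule protease, was 25.2 in Tumorigenic cells, 8.79 in CTL and 3.13 in TR-TFH, and was between 1.16 and 2.58 elsewhere. The low *Ccl5* of the other clusters thus did not keep 1 ratio to these genes. How much of it was free RNA was not tested.

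TGFβR-WT cells of the CTL cluster were few but carried the gene. All 13 held *Ccl5*, at a level of 54.6, with 36.5 in the 10 cells of the larger set and 110.9 in the 3 cells of the smaller set. In TGFβR-CA, 2 of 3 CTL cells held 37 of the 40 *Ccl5* UMIs of that condition. The TGFβR-KO level of 123.6 stood above that of the larger set and near that of the smaller, over few cells.

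Much of the difference in *Ccl5* over all cells went with the cluster makeup. When TGFβR-KO cluster levels were weighted by the cluster shares of TGFβR-WT, the level fell from 19.6 to 3.21, which is 3.07 times TGFβR-WT. When TGFβR-WT cluster levels were weighted by the shares of TGFβR-KO, their level rose to 6.71, which is 6.42 times its own value. CTL and Tumorigenic cells made up 10.8% and 12.1% of TGFβR-KO cells and 1.29% and 0.497% of TGFβR-WT cells. The value of 6.71 therefore leans mainly on 13 CTL cells of TGFβR-WT, at a level of 54.6 (36.5 and 110.9 in its sets). The 5 Tumorigenic TGFβR-WT cells, at a level of 4.54, weigh less in it.

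Within clusters that held at least 20 cells in both conditions, *Ccl5* was higher in TGFβR-KO in 5 of 6. The ratio to TGFβR-WT was 7.03 in Activated, 6.02 in TR-TFH and 5.75 in Cycling cells. It was 0.781 in Migratory cells, where 1 of 89 TGFβR-WT cells held 26 of 33 UMIs. In Pre-tumorigenic cells 343 UMIs in 230 TGFβR-KO cells stood against 2 UMIs in 79 TGFβR-WT cells. In GC-TFH the level was 1.10 with and 0.611 without the 1 cell, against 0.402 in TGFβR-WT and 0.594 in its larger set. The background share of genes called higher was 10.0% in Activated, 3.64% in TR-TFH, 23.8% in Cycling, 9.40% in Migratory, 15.3% in Pre-tumorigenic and 7.20% in GC-TFH cells. The ratio in TR-TFH, the reference for free RNA, was as large as in Cycling cells, and the part of free RNA in the within-cluster differences was not tested. Of the cells in Cycling, 11 in TGFβR-KO and 13 in TGFβR-WT had a shared barcode.

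**Figure D3:**
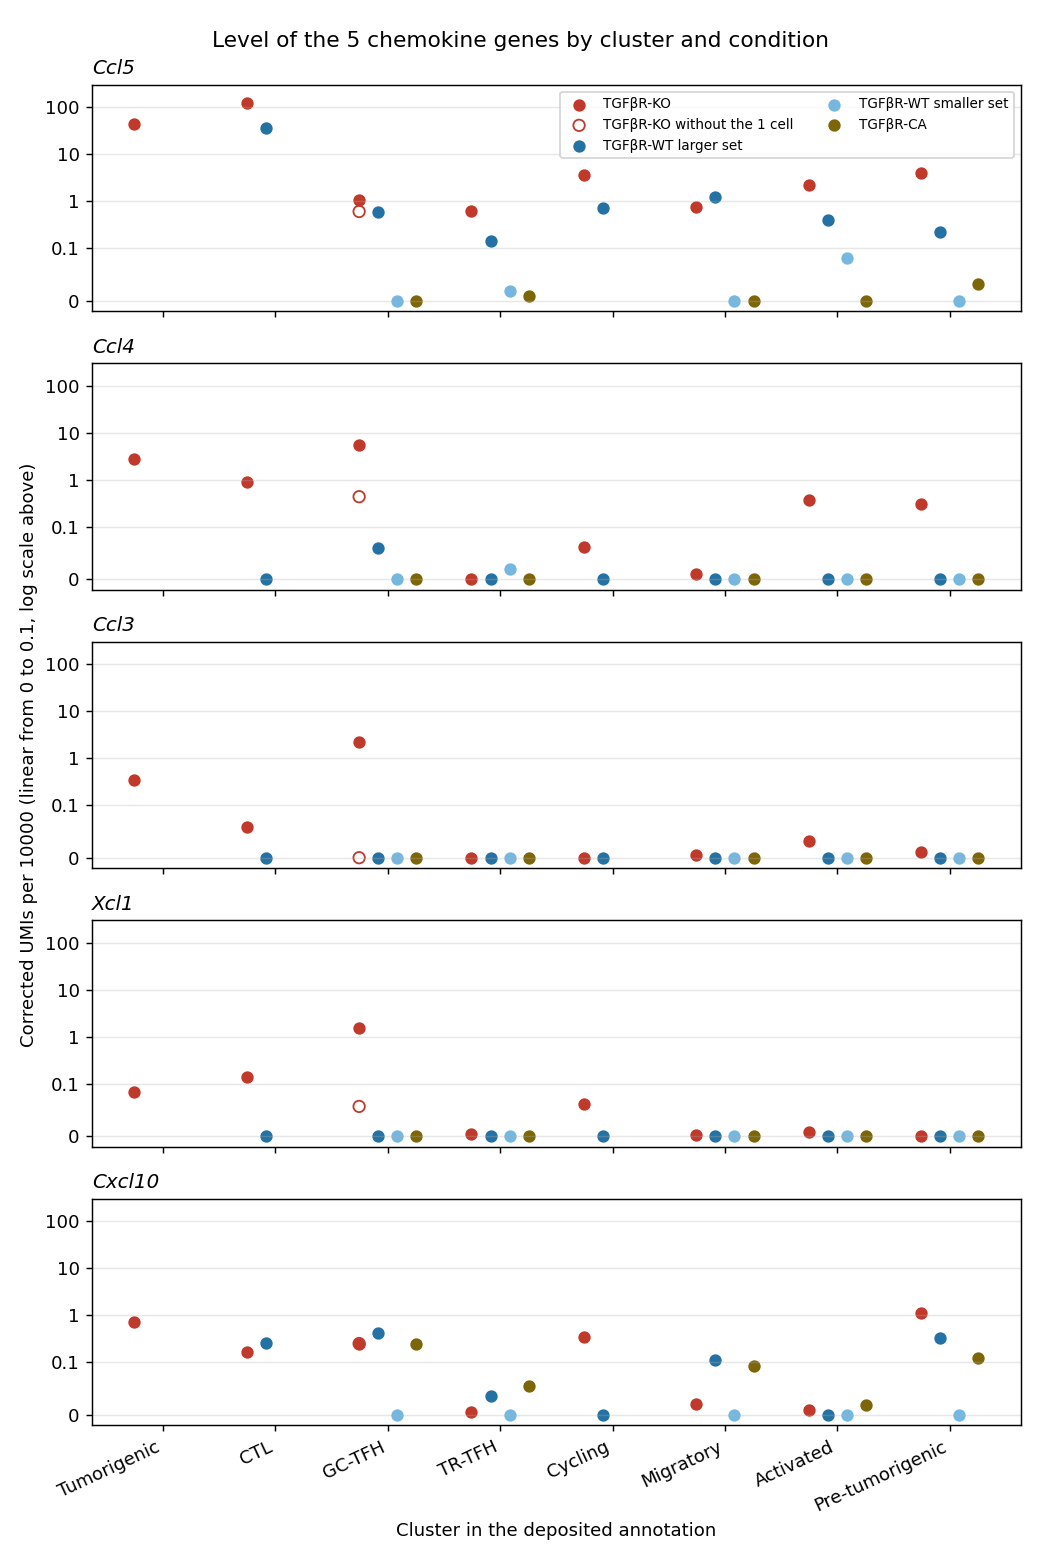
Level of each gene (corrected UMIs per 10000, vertical axis, linear from 0 to 0.1 and log scale above) by cluster in TGFβR-KO, both TGFβR-WT sets and TGFβR-CA. Points are sums over cells with no error bar, groups under 10 cells are not drawn, and the open circle in GC-TFH leaves out the 1 cell, which takes *Ccl3* there from 2.20 to 0.

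*Ccl4* was confined to few cells but in the same clusters. It was above 0 in 102 TGFβR-KO cells, 3.43% (2.80 to 4.15), at a level of 1.10, or 0.562 without the 1 cell. In TGFβR-WT 3 cells held 6 UMIs between them, 3 UMIs in each set. In TGFβR-CA it was 0 of 1098 cells, which allows a share of up to 0.335%. The ratio of TGFβR-KO to TGFβR-WT was 68.2 with the cell and 34.8 without it. With the cell it was 91.8 against the larger and 44.5 against the smaller set. With TGFβR-WT cluster shares and without the cell it was 11.7.

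*Ccl4* was above 0 in 38 of 321 CTL cells, 11.8% (8.51 to 15.9), and in 37 of 361 Tumorigenic cells, 10.2% (7.32 to 13.8). The shares overlapped, but the amounts did not follow them. The level was 2.85 in Tumorigenic and 0.909 in CTL cells, the median positive cell had 6 and 1 UMIs, and 13 Tumorigenic cells against 1 CTL cell had 10 or more. Of Pre-tumorigenic cells 10 held it, 4.35% (2.10 to 7.85). In TR-TFH it was 0 of 519 cells, which allows up to 0.708%. The share in CTL and Tumorigenic cells was therefore above what the reference cluster showed.

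*Ccl3* and *Xcl1* were seen in 21 and 19 TGFβR-KO cells. Without the 1 cell, *Ccl3* fell from a level of 0.292 to 0.0558 and *Xcl1* from 0.195 to 0.0357. *Ccl3* was at 0 in all 1007 TGFβR-WT cells, which allows a share of up to 0.366%, and in all 1098 TGFβR-CA cells. *Xcl1* was at 0 in TGFβR-WT, and 1 UMI of it lay in a CTL cell of TGFβR-CA. Against a floor of 3 UMIs over the TGFβR-WT cells, *Ccl3* was at least 36.2-fold higher in TGFβR-KO with the cell and at least 6.91-fold higher without it. *Xcl1* was at least 24.2-fold higher with the cell and at least 4.43-fold higher without it. Against the larger and the smaller set alone, with the cell, the bounds were 24.4 and 11.8 for *Ccl3* and 16.3 and 7.89 for *Xcl1*. Both sets were at 0 for these genes, so the bounds differ between sets only through set size. Bounds against a single set were not computed without the cell, and they would be lower.

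By cluster, 10 of the 21 *Ccl3* cells were Tumorigenic, 2.77% (1.34 to 5.04) of that cluster, and 5 were CTL. Their level was 0.354 in Tumorigenic and 0.0579 in CTL cells. *Xcl1* was found in 7 CTL cells, 2.18% (0.881 to 4.44), in 4 GC-TFH cells and in 3 Tumorigenic cells, of which 1 held 10 of the 12 UMIs. The GC-TFH level of *Xcl1* was 1.54 with and 0.0570 without the 1 cell, and that of *Ccl4* was 5.45 with and 0.440 without it. With the cell, GC-TFH ranks first of the 8 clusters by level for all 3 of these genes, and without it Tumorigenic ranks first for *Ccl3* and *Ccl4* and CTL for *Xcl1*. At these counts neighboring clusters further down the order could not be told apart.

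*Cxcl10* had another distribution. In TGFβR-KO 113 cells held it, 3.80% (3.14 to 4.55), at a level of 0.239, and no cell held more than 17 UMIs. The highest share was in Pre-tumorigenic cells, 36 of 230 or 15.7% (11.2 to 21.0), at a level of 1.14. Tumorigenic cells followed with 49 of 361, 13.6% (10.2 to 17.5), at a level of 0.736. Cycling cells came next with 7 of 77, 9.09% (3.73 to 17.8), at a level of 0.341. The intervals of these clusters overlapped. In CTL, the richest cluster for *Ccl5*, 9 of 321 cells held it, 2.80% (1.29 to 5.26), and in TR-TFH 1 of 519.

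In TGFβR-WT 16 cells held *Cxcl10*, 1.59% (0.911 to 2.57), at a level of 0.0860. All 16 were in the larger set, where the level was 0.128. The smaller set had 0 of 298 cells, which allows a share of up to 1.23%, so the TGFβR-WT sets themselves parted on this gene. The share of genes called higher in the larger set was 11.8%. In TGFβR-CA 12 cells held it, 1.09% (0.566 to 1.90), at a level of 0.103. The ratio of TGFβR-KO to TGFβR-WT was 2.77 pooled, 1.87 against the larger set and at least 9.65 against the smaller. The ratio of TGFβR-CA to TGFβR-WT was 1.19 pooled, 0.804 against the larger set and at least 4.15 against the smaller. No direction was read from it.

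Of the 16 TGFβR-WT cells with *Cxcl10*, 8 were GC-TFH, and GC-TFH cells of the 3 conditions had levels of 0.252 in TGFβR-KO, 0.281 in pooled TGFβR-WT, 0 in its smaller set, and 0.243 in TGFβR-CA. In Pre-tumorigenic cells the TGFβR-KO share of 15.7% stood against 2 of 79 cells in TGFβR-WT, 2.53% (0.308 to 8.85), and 1 of 83 cells in TGFβR-CA, 1.2% (0.0305 to 6.53). In the larger TGFβR-WT set alone the share was 7.41% (0.910 to 24.3), an interval that overlaps that of TGFβR-KO.

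Genes induced by tissue dissociation were high in the clusters that held most *Cxcl10*. Of 16 such genes tested, all 16 were higher in Pre-tumorigenic than in the other TGFβR-KO cells and 13 were higher, with 1 lower, in Tumorigenic cells. *Fos*, *Hspa1a* and *Dnajb1* of this list are also among the markers used to check Pre-tumorigenic cells, and *Nr4a1* among those of Tumorigenic cells. The clusters had been formed on the expression of these same cells, so the counts describe the clusters. The background share of genes called higher was 5.02% for Pre-tumorigenic and 6.42% for Tumorigenic cells, and 26% were lower in the latter. Their summed level was 472 in Pre-tumorigenic TGFβR-KO cells, 304 in Pre-tumorigenic TGFβR-WT cells and 217 in Tumorigenic TGFβR-KO cells. When all cells above the median of this list were left out, which left 2 Tumorigenic and no Pre-tumorigenic TGFβR-KO cells, the log2 ratio of TGFβR-KO to TGFβR-WT for *Cxcl10* turned from 1.47 to -0.91. That of *Ccl5* went from 4.22 to 4.12. The 2 clusters held 99 and 104 of the 274 *Cxcl10* UMIs in TGFβR-KO, so leaving them out was bound to lower its ratio. The part of the dissociation genes in the *Cxcl10* levels was not tested.

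**Figure D4:**
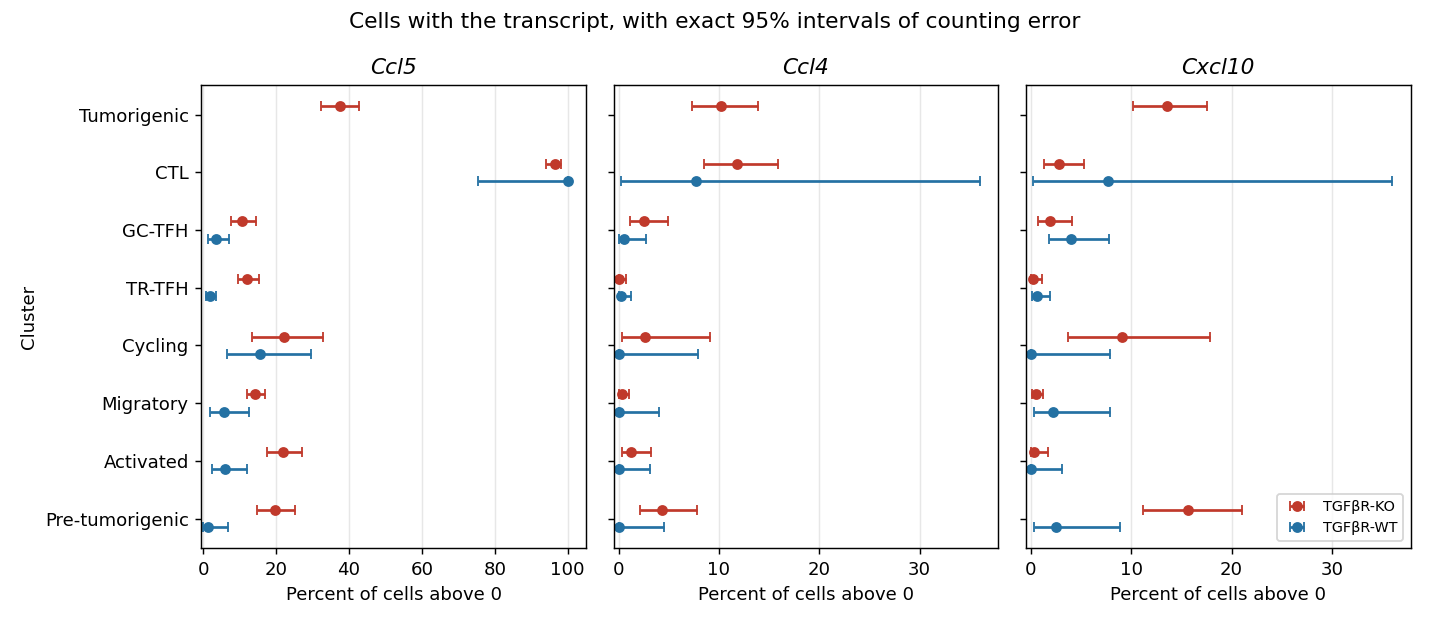
Percent of cells above 0 (horizontal axis) by cluster for *Ccl5*, *Ccl4* and *Cxcl10* in TGFβR-KO and pooled TGFβR-WT, with exact 95% intervals of counting error. The 5 TGFβR-WT Tumorigenic cells are not drawn. *Ccl5* stands out in CTL cells at 96.6% and Tumorigenic cells at 37.4%, *Ccl4* in the same clusters at 11.8% and 10.2%, and *Cxcl10* in Pre-tumorigenic and Tumorigenic cells at 15.7% and 13.6%. The *Cxcl10* share of TGFβR-KO Cycling cells, 9.09%, has an interval that overlaps both.

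Over all cells, each of the 5 genes exceeded a ratio of 1.5 in TGFβR-KO against TGFβR-WT, where 4.35% of 7490 genes with at least 200 corrected UMIs did. The genes had been chosen with this contrast known, and *Ccl3* and *Xcl1* reached 200 UMIs through the 1 cell alone, so nothing was read from this count. Without the cell, 3 of the 5 passed both conditions, where 4.35% of genes did. In TGFβR-CA against TGFβR-WT, *Ccl5* was the only member with UMIs in both conditions past the ratio, downward, where 7.21% of genes were lower.

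*Ccl3*, *Ccl4* and *Ccl5* were detected together in some single cells of the Tumorigenic cluster. At least 2 of the 5 genes were found in 4.50% of TGFβR-KO cells, in 17.1% of CTL and 13.9% of Tumorigenic cells and in no TR-TFH cell. Of the 37 Tumorigenic cells with *Ccl4*, 34 (91.9%) also held *Ccl5*, against 31.2% of those without *Ccl4*. All 10 Tumorigenic cells with *Ccl3* held *Ccl5* and 8 held *Ccl4*. In CTL, all 38 cells with *Ccl4* held *Ccl5*, but so did 96.1% of the rest. There the level of *Ccl5* was 275.8 in cells with and 102.9 in cells without *Ccl4*.

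For *Cxcl10* the pairing differed by gene and cluster. Over all TGFβR-KO cells, *Ccl5* was found in 38.9% of those with and 26.2% of those without *Cxcl10*, and *Ccl4* in 8.85% and 3.21%. Tumorigenic cells held *Ccl5* in 40.8% of those with and 36.9% of those without *Cxcl10*. In Pre-tumorigenic cells the shares were 16.7% and 20.1%. *Ccl4* was found in 14.3% of Tumorigenic cells with and 9.62% of those without *Cxcl10*, at levels of 8.89 and 1.89, and *Ccl3* was at 0.668 and 0.304. These rest on 7 cells with both *Ccl4* and *Cxcl10* and 3 with both *Ccl3* and *Cxcl10*. These are shares of cells of 1 sample. Depth per cell raises joint detection. After the authors' correction, the median in TGFβR-KO still ran from 3575 UMIs per cell in TR-TFH to 4271 in Cycling. The part of depth in joint detection was not tested.

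The Tumorigenic cells rich in *Ccl5* were compared with those that had none, 82 against 226 cells of 1 library. Of 5 cytotoxic granule genes tested, 4 were higher and none lower, where 11.2% of all genes were higher and 27.8% lower. *Gzma* was at 5.23 against 0.101, *Gzmb* at 5.49 against 0.730 and *Nkg7* at 25.2 against 3.60. Of 6 regulators of type 1 helper T cells tested, 4 were higher and none lower. *Ifng*, the type 1 cytokine, was at 61.1 against 9.93, *Il12rb2*, a subunit of the interleukin-12 receptor, at 0.969 against 0.168, and *Tbx21*, which encodes T-bet, at 1.39 against 0.550. The median ratio was 7.0 for the granule genes and 2.04 for the type 1 regulators, against 0.885 for all genes tested.

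Genes of antigen receptor and NF-κB activation did not rise with *Ccl5* in these cells. Of 13 tested, none was higher and 5 were lower, where 11.2% of all genes were higher and 27.8% lower. No fall of the list was read from this count. Among the lower genes were *Cd69*, an early activation marker, at 3.13 against 6.60, and *Irf4* at 0.937 against 1.72. *Nfkbia*, the NF-κB inhibitor, was at 20.6 against 23.6. *Ccl4* was at 12.8 in the cells rich in *Ccl5* and at 0.0337 in those without. All 50 *Ccl3* UMIs of the cluster lay in the cells rich in *Ccl5*. *Xcl1* had 0 against 11 UMIs, 10 of them in 1 cell, and no direction was read from it.

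Tumorigenic cells were also split by *Ccl4*, 37 with it against 324 without. All 5 granule genes and 4 of 6 type 1 regulators were higher, and 5 of 13 activation genes were lower, where 14.0% of genes were higher and 24.2% lower. *Ifng* was at 70.0 in Tumorigenic cells with and 16.3 in those without *Ccl4*. *Xcl1* had 10 UMIs in cells with *Ccl4*, all in 1 cell, and 2 in those without. In CTL, 3 of 5 granule genes were higher in cells with *Ccl4*, where 18.7% of genes were, and none of 6 type 1 regulators was.

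Tumorigenic cells with *Cxcl10* differed from those without it in other genes. Of 7 interferon-response genes tested, 4 were higher and 1 lower, where 16.4% of genes were higher and 16.2% lower. *Gbp2*, a guanylate-binding protein, was at 0.668 against 0.279, *Irf1* at 0.771 against 0.419 and *Bst2* at 1.39 against 0.788, while *Stat2* was at 0.0514 against 0.172 on 1 against 21 UMIs. None of the 13 activation genes was past the ratio. In Pre-tumorigenic cells the interferon genes gave 2 higher and 2 lower of 7, and 4 of 13 activation genes were higher, where 21.1% of genes were higher and 16.0% lower. There *Ccl5* was at 0.423 in cells with and 4.62 in cells without *Cxcl10*, on 6 and 337 UMIs.

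The receptors were looked up in the same T cells. *Cxcr3*, the receptor of Cxcl10, was at 1.30 in TGFβR-KO and 0.382 in TGFβR-WT, a ratio of 3.41, and was most frequent in CTL, 56.4% of cells. Cells of the Tumorigenic cluster rich in *Ccl5* had less of it than those with none, 0.291 against 1.27. *Ccr1*, a receptor of Ccl3 and Ccl5, was at 0.0287 in TGFβR-KO and 0.288 in TGFβR-WT (larger set 0.215, smaller set 0.437), a pooled ratio of 0.0999. *Xcr1* had 11 UMIs in TGFβR-KO and 4 in TGFβR-WT. *Ccr3* was not analysed here.

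Other chemokine genes in the table numbered 8, of which 2 reached 200 UMIs. *Ccl20*, the Ccr6 ligand that Th17 cells make, was at 0.0801 in TGFβR-KO and 0.798 in TGFβR-WT, opposite in direction to the 5 genes. Its level was 1.03 in the larger and 0.330 in the smaller TGFβR-WT set, both above TGFβR-KO. *Cxcl3*, a neutrophil attractant, was at 0.341 in TGFβR-KO and 0.0511 in TGFβR-WT (0.0319 and 0.0907 in its sets), and 217 of its 391 TGFβR-KO UMIs lay in Tumorigenic cells. Within that cluster *Cxcl3* was lower in the cells rich in *Ccl5*, and the summed level of the 8 genes was 0.258 against 2.56. *Ccl20* had only 9 UMIs in 4 cells of the whole cluster, so no direction was read from it there.

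Over all cells, the lists fixed for this description showed 4 of 6 type 1 regulators and 4 of 5 granule genes higher in TGFβR-KO than in TGFβR-WT, and none lower. *Il12rb2* was 16.4, *Nkg7* 6.93, *Ifng* 6.91 and *Tbx21* 5.33 times the TGFβR-WT level. Of the 7 interferon-response genes 3 were higher and of the 13 activation genes 4 were higher and 2 lower, where 4.35% and 10.5% of all genes were. Of 16 dissociation genes 6 were higher, with a summed level of 99.9 in TGFβR-KO and 72.8 in TGFβR-WT. The median ratio of all genes was 0.888. In TGFβR-CA 4 of 5 granule genes were lower than in TGFβR-WT, where 7.21% of all genes were lower. CTL cells numbered 3 in TGFβR-CA and 13 in TGFβR-WT. The lists overlap, and *Egr1* and *Nr4a1* belong to both the activation and the dissociation list.

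The genes whose levels followed each chemokine most closely over 19 groups of cells (clusters within each condition) were ranked among 7490 genes by Pearson's correlation, as a description of points that share libraries. For *Ccl5* these were *Chsy1* (0.92), *Klrg1* (0.88), *Epsti1* (0.87), *Slamf7* (0.87) and *Sytl3* (0.86), and *Klrg1* is a receptor of differentiated effector T cells. For *Cxcl10* they were *Map3k8* (0.89), *Rel* (0.89), *Tagap* (0.87), *Nr4a1* (0.86) and *Adora2a* (0.85), and *Rel* is an NF-κB subunit. Over the 8 TGFβR-KO clusters alone, 0 of these genes stayed among the 5 closest to *Cxcl10*. They were then *5430416N02Rik* (0.98), *Zfand2a* (0.96), *Atf4* (0.95), *Hspa8* (0.95) and *Hsp90aa1* (0.95). For *Ccl4*, *Ccl3* ranked first (0.89) and *Xcl1* second (0.82), but this rested on the 1 cell. Without it the closest to *Ccl4* were *Chsy1* (0.87), *Klrg1* (0.85), *Ccl3* (0.84), *Ccl5* (0.83) and *Csf1* (0.82). *Xcl1* without it was closest to *Slamf7* (0.91), *Il12rb2* (0.87) and *Csf1* (0.85).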

How the data were processed

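Droplet scRNA-seq of sorted intestinal T cells from 4 samples was used in the form the authors deposited, a table with 13265 genes, 5080 cells and a cluster name per cell. By the submitters' processing notes and the methods, reads were counted with Cell Ranger 3.1.0 on mm10 and processed in Seurat, with limits on detected genes and mitochondrial share, SCTransform, integration, and clustering. γδ T cells and epithelial cells had been removed. The unit the authors deposited is the natural log of corrected UMIs plus 1, and its values do not carry each cell's original depth. The log was undone, giving whole numbers within 1e-06. The sums of corrected UMIs were 11479720 (TGFβR-KO), 4382832 (TGFβR-CA) and 3719565 (TGFβR-WT).

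Levels are summed corrected UMIs per 10000, and shares have exact Clopper-Pearson 95% intervals. A group at 0 took a floor of 3 UMIs in ratios, and a ratio of at least 1.5 among genes with at least 200 UMIs was called. Raw counts were not used here and 2 of the conditions have a single sample, so the planned count models were not run and no p-value is given. Doublets were not called. Instead, cells with markers of other cell types were left out as an alternative. No column of per-sample values was left unused (0). The members and lists were chosen with earlier results of these data known. Named genes are the members, their receptors, the other chemokines, the listed pathway genes and the 5 genes most like each member. The ratio calls were tried on simulated sums with counting error alone and planted changes larger than the ratio called. The simulation held no variation between cells or libraries. It does not check calls that rest on a single cell or a single library. Tools were Python 3.11.15, numpy 2.4.6, pandas 2.3.3, scipy 1.17.1 and matplotlib 3.10.9. Other alternatives changed the TGFβR-WT set, the shared barcodes, the dissociation-rich cells, the clusters, the scale, the pseudocount and the fold.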

Additional observations from a re-analysis of the deposited data

How the results depend on the processing

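Of 137 alternative values, 76 stayed within the spread used to judge them, 60 moved and 1 turned. For *Ccl3* and *Xcl1* that spread came from floor bounds and so only from the sizes of the TGFβR-WT sets. Differences of mean natural log values were judged against log2 ratios, which are in another unit. The tally therefore does not measure how stable the results are. Ratios of TGFβR-KO to TGFβR-WT stayed above 0 on the log2 scale in 63 of 64 alternatives. *Ccl3* and *Xcl1* were at 0 in TGFβR-WT, so in most alternatives their ratios could not fall below 0. The genes were also chosen with this contrast known, so nothing was read from this count. The exception was *Cxcl10* at -0.91 without cells above the dissociation median. That alternative leaves out nearly all Tumorigenic and every Pre-tumorigenic TGFβR-KO cell. The same alternative gave 0.023 for *Ccl3*, 0.31 for *Xcl1*, 3.55 for *Ccl4*, and -7.84 for *Ccl5* in TGFβR-CA against TGFβR-WT. Against the smaller TGFβR-WT set, with the 1 cell kept in, the log2 ratio was 3.56 for *Ccl3*, 2.98 for *Xcl1*, 3.27 for *Cxcl10* and 2.05 for *Cxcl10* in TGFβR-CA. For *Ccl5* within clusters it was then 3.14 in GC-TFH, 5.04 in TR-TFH, 1.29 in Cycling, 0.78 in Migratory, 4.77 in Activated and 4.73 in Pre-tumorigenic cells, and 4.17 in the last against the larger set. The smaller set held few *Ccl5* UMIs outside CTL cells.

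Without the 1 cell the log2 ratio was 2.79 for *Ccl3*, 5.12 for *Ccl4* and 2.15 for *Xcl1*, and 3 rather than 5 members were called. Without the 10 highest cells of each condition it was 0.24 for *Ccl3*, 4.96 for *Ccl4*, 5.98 for *Ccl5* and 3.26 for *Cxcl10*, and too few *Xcl1* UMIs were left for a value. Both were chosen after seeing the data. With 1 cluster left out at a time the lowest was 2.63 for *Ccl3*, 1.72 for *Xcl1* and 3.70 for *Ccl5*, whose highest was 4.68, and *Ccl5* in TGFβR-CA lay between -5.53 and -3.32. With TGFβR-WT cluster shares *Ccl5* came to 1.62 in TGFβR-KO and -1.35 in TGFβR-CA, and without cells holding markers of other cell types to 3.97 and -3.18.

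With 0.1 added per 10000 the log2 ratio was 1.97 for *Ccl3*, 3.37 for *Ccl4*, 4.10 for *Ccl5*, 1.56 for *Xcl1* and -2.58 for *Ccl5* in TGFβR-CA, as the added value pulls low levels together. On another scale, the difference of mean natural log values was 0.0092, 0.046, 0.52, 0.0080 and -0.069 in the same order. Counting cells with at least 2 UMIs gave *Ccl5* in 29.6% of Tumorigenic cells, *Ccl4* in 5.30% of CTL and 6.93% of Tumorigenic cells, and *Cxcl10* in 5.82% of Tumorigenic and 9.13% of Pre-tumorigenic cells. Where no cause is given, the cause was not tested. Of the 5 genes most like *Ccl5*, the rank correlation shared 0 and of those most like *Cxcl10* 4. With TGFβR-KO clusters only, 1 was shared for *Ccl5* and 0 for *Cxcl10*. No paired analysis was possible because 2 of the conditions have a single sample and TGFβR-WT cells could not be tied to a sample. The planned count models, edgeR and DESeq2, were not run because the unit is not raw counts.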

Other observations

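The single TGFβR-KO cell that held most of the *Ccl3* and *Xcl1* also held high amounts of other effector genes, which were picked after its values were seen. It had 63 corrected UMIs of *Cd160*, 54 of *Gzma*, 40 of *Nkg7*, 35 of *Ifng*, 28 of *Nr4a2*, 20 of *Il2*, 16 of *Tnfsf9* and 13 of *Tnf*. Per 10000 UMIs, *Gzma* was at 121.9 in this cell and 0.407 in the other TGFβR-KO cells of its cluster. *Il2* was at 45.2 against 0.0978 and *Ifng* at 79.0 against 0.579. *Gzmb* and *Tbx21* had 1 UMI each in it, and *Eomes* and *Tgfbr2* had none.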
